A study of Homo sapiens with 9 samples.

Results

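The genes described here are 9 transcription factors that direct myeloid differentiation: SPI1 (which encodes PU.1), IRF8, KLF4, CEBPA, CEBPB, CEBPD, CEBPE, GFI1 and MITF. The rule that picks them goes by gene symbol and uses no measured value, although the set was drawn up with earlier results of these data known. They make up 9 of the 25679 gene symbols in a table of read counts per transcript. Their symbols stood on 24 transcript rows, and for each gene the row with the highest total over all libraries was used. All 9 passed the filter on low counts. The libraries are messenger RNA from MOLM13 cells, an established line of human acute myeloid leukemia with a KMT2A fusion. Of the 9 libraries, 3 carried YTHDC1 shRNA 1, 3 carried YTHDC1 shRNA 2 and 3 carried a control shRNA. YTHDC1 is a nuclear protein that binds RNA methylated at N6 of adenosine, and the series asked how its knockdown changes gene expression. All 3 groups shared the other treatments: per the labels' protocols, transduction was a 1 h spin at 32 °C in 10 ug/ml polybrene, and puromycin at 3 ug/ml was applied for 48 h after a 48 h incubation. All groups are the same cell line, and the labels do not say that the libraries of a group came from separate cultures, so p-values measure the spread between libraries, which may be technical.

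Blood progenitors become monocytes, macrophages, granulocytes or osteoclasts under a small set of DNA-binding proteins that act in combination. PU.1, an ETS-family factor, opens myeloid enhancers and pairs with IRF8 at composite sites; IRF8 and KLF4 favor monocytes, while C/EBP-alpha starts the granulocyte and monocyte program and C/EBP-epsilon completes neutrophil and eosinophil granules. C/EBP-beta and C/EBP-delta act in emergency and inflammatory responses, GFI1 represses monocytic genes through the demethylase LSD1, and MITF, best known from melanocytes, acts with its relatives TFE3 and TFEC in macrophages and osteoclasts.

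Library totals ran from 26455645 to 67558551 counts, and 0 counts allowed a level of up to 0.0444 to 0.113 CPM (counts scaled to a common library total; 3 counts, counting error only). Levels are given in CPM with edgeR's TMM scaling, the trimmed mean of log ratios between libraries. YTHDC1 itself was at 117, 103 and 134 CPM with shRNA 1, at 0, 61.4 and 52.5 CPM with shRNA 2, and at 134, 139 and 122 CPM in controls. The libraries labelled shRNA 1 overlapped the controls, with a log2 change of -0.16 and an SE of 1.36 over all 9 libraries (edgeR adjusted p = 0.938). Without shRNA 2 replicate 1, whose 0 enters the shared spread, the change was -0.18 with an SE of 0.13 (edgeR adjusted p = 0.271). A direction found with shRNA 1 is tied to that label and not to a measured loss of YTHDC1 mRNA. The fall with shRNA 2 did not pass over all libraries (edgeR adjusted p = 0.326) and passed without replicate 1 (-1.23, edgeR adjusted p = 2.2e-05). shRNA 2 replicate 1 stood apart: 486 of 10462 genes lay under 0.5 of their level in both other libraries of its group, against 0 to 73 genes in the other libraries. None of the 9 factors was among them, since its level of each was 0.983 (GFI1) to 1.22 (CEBPA) of the mean of the other shRNA 2 libraries; where leaving it out changed a call of these factors, or a gene list's count against control, the value without it is given. The share of counts on the ribosomal RNA precursor RNA45S5 ran from 1.12% to 13.1%. The 5 markers of KMT2A-rearranged myeloid lines summed to 592 to 716 CPM with shRNA 1, 437 to 477 CPM with shRNA 2 and 832 to 871 CPM in controls, and none was under 1 CPM in every group mean. The 11 erythroid and megakaryocyte markers were all under 1 CPM, with PF4 at 0.

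Most of the 9 factors differed from control in both YTHDC1 shRNA groups, mainly upward. With shRNA 1, 6 were higher (SPI1, IRF8, KLF4, CEBPD, CEBPE and MITF) and 1 was lower (CEBPB), together 77.8% of the set, where edgeR called 39.4% of all 16746 genes tested (20.4% higher and 19.0% lower). This count depended on control replicate 2, without which 3 were higher and 1 was lower, the calls of SPI1, CEBPE and MITF being lost. With shRNA 2, the same 6 were higher and GFI1 was lower, where edgeR called 54.9% of all genes (27.5% higher and 27.4% lower). Libraries did not overlap with those of control for 6 of the 9 with shRNA 1, against 49.9% of all genes, and for 8 of the 9 with shRNA 2, against 69.0%. Without shRNA 2 replicate 1 the calls were 6 higher and 1 lower with shRNA 1 (40.4% of all genes called) and 6 higher and 2 lower with shRNA 2 (52.8%). The median log2 fold change of the 9 was 0.45 with shRNA 1, beside 0.02 over all genes, and 1.07 with shRNA 2, beside -0.02. Both comparisons use the same 3 controls. In bulk RNA, fewer cells of a type and less RNA per cell cannot be told apart. Of 16 monocyte and macrophage markers 15 were tested, of which 11 were higher with shRNA 1 and 15 with shRNA 2, and 0 lower. The markers summed to 2030 to 4270 CPM with shRNA 1, 3100 to 3700 CPM with shRNA 2 and 322 to 480 CPM in controls. Much of the sum was lysozyme, LYZ, at 3790, 2190 and 1690 CPM with shRNA 1, 2960, 2500 and 2490 CPM with shRNA 2, and 273, 149 and 137 CPM in controls. The part of a changed cell makeup in the results was not tested.

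**Figure D1:**
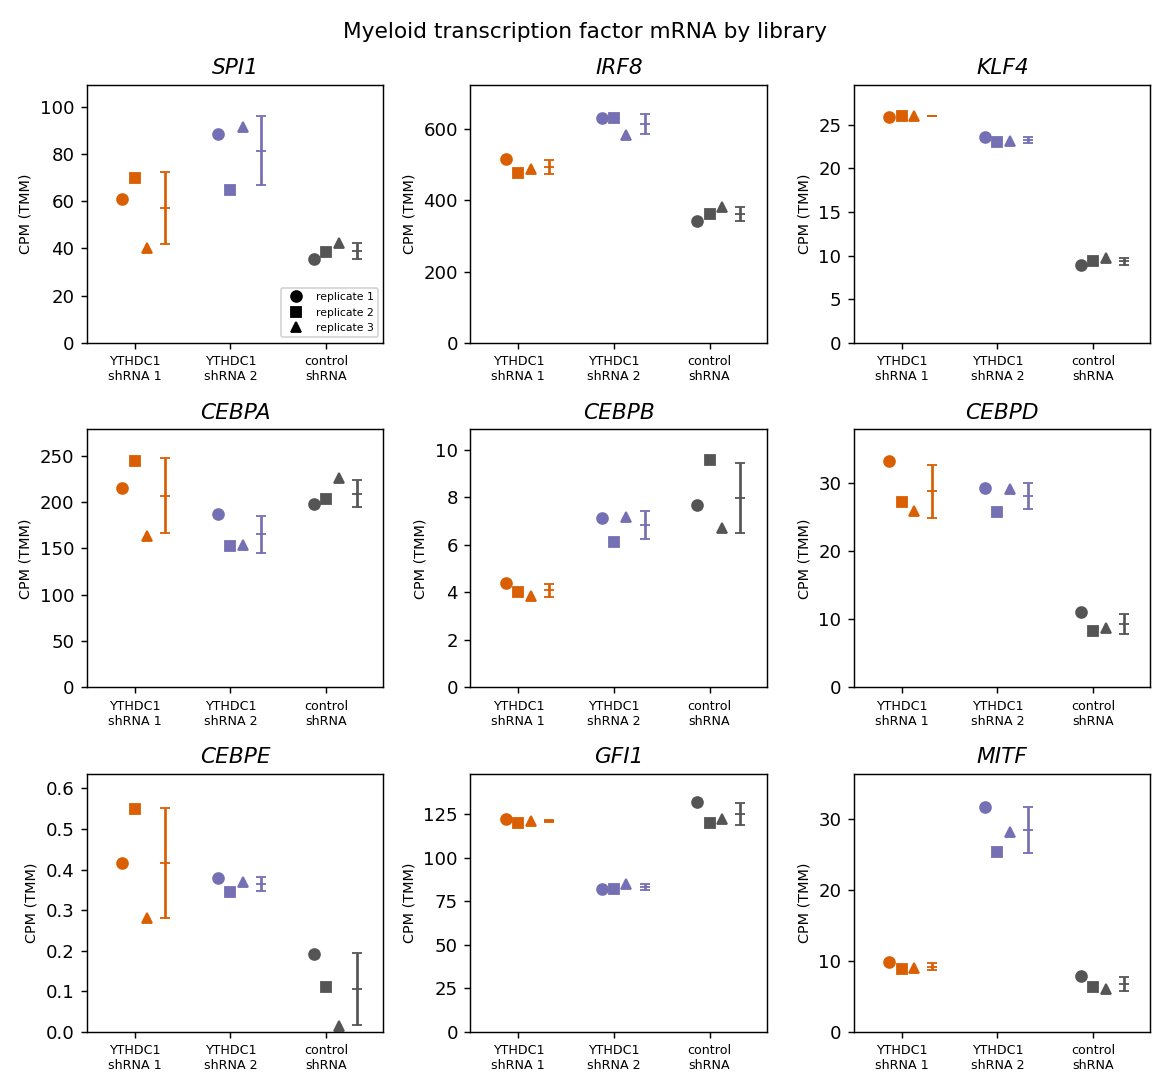
Level of each factor in every library, in TMM-scaled CPM on axes that start at 0; symbols are replicates and the ticks with bars are mean ± SD of 3, with shRNA 1, shRNA 2 and control from left to right in each panel. CEBPD and KLF4 stood at a similar raised level in both YTHDC1 shRNA groups, MITF was far above the other groups with shRNA 2, and GFI1 was lower with shRNA 2 and overlapped control with shRNA 1.

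Among the factors of the monocyte branch, KLF4, a zinc-finger factor that drives monocyte identity, showed the tightest separation. Its level was 25.9, 26.0 and 26.0 CPM with shRNA 1, 23.6, 23 and 23.1 CPM with shRNA 2, and 8.89, 9.39 and 9.74 CPM in controls. All 6 libraries with a YTHDC1 shRNA lay above all controls, and the groups did not overlap. KLF4 rose 2.78-fold with shRNA 1 (log2 change 1.48 ± 0.10, where ± is the SE; edgeR adjusted p = 2.35e-06), and its rise with shRNA 2 was 2.49-fold (1.32 ± 0.10, edgeR adjusted p = 8.48e-07). The 3 shRNA 2 libraries lay just below the 3 shRNA 1 libraries, yet the difference of -0.16 did not pass (edgeR adjusted p = 0.22; 95% interval -0.36 to 0.05).

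IRF8, the interferon regulatory factor that commits progenitors to monocytes and dendritic cells, had the highest level of the 9 per kilobase of transcript. It stood at 515, 476 and 488 CPM with shRNA 1, at 632, 630 and 583 CPM with shRNA 2, and at 343, 361 and 381 CPM in controls. The 3 groups did not overlap, with shRNA 2 highest and control lowest. IRF8 rose 1.36-fold with shRNA 1 (0.45 ± 0.10, edgeR adjusted p = 0.00416), and its rise with shRNA 2 was 1.70-fold (0.76 ± 0.10, edgeR adjusted p = 6.31e-05). IRF8 was also higher with shRNA 2 than shRNA 1 (0.32 ± 0.10, edgeR adjusted p = 0.0281). This last call was lost without shRNA 1 replicate 2 (edgeR adjusted p = 0.0534), shRNA 2 replicate 1 (0.101), shRNA 2 replicate 2 (0.105) or control replicate 2 (0.0549).

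SPI1, whose product PU.1 is required for macrophages and sets much of the myeloid enhancer landscape, varied more within groups. Its level was 60.8, 69.8 and 40.2 CPM with shRNA 1, 88.3, 64.5 and 91.5 CPM with shRNA 2, and 35.5, 38.4 and 42.4 CPM in controls. All shRNA 2 libraries were above all controls, but shRNA 1 replicate 3 lay below control replicate 3. SPI1 rose 2.10-fold with shRNA 2 (1.07 ± 0.20, edgeR adjusted p = 0.00112). With shRNA 1 the log2 fold change was 0.55 ± 0.20 and passed narrowly (edgeR adjusted p = 0.0479). That call was lost without shRNA 1 replicate 1 (edgeR adjusted p = 0.143), shRNA 1 replicate 2 (0.162), shRNA 2 replicate 3 (0.0632), control replicate 1 (0.151), control replicate 2 (0.122) or control replicate 3 (0.0805). Across the shRNA 1 libraries SPI1 followed the same order as the RNA45S5 share, which was 9.68%, 13.1% and 4.78%. It also did in controls, at 3.04%, 5.25% and 5.57%. With shRNA 2 the share was 1.12%, 5.8% and 4.54%, and SPI1 was lowest in the library with the highest share. Whether the share plays a part was not tested. Between the hairpins the difference of 0.52 did not pass (edgeR adjusted p = 0.0724; 95% interval 0.07 to 0.96), though it did without shRNA 1 replicate 2 (0.70, edgeR adjusted p = 0.0262) or shRNA 2 replicate 2 (0.65, edgeR adjusted p = 0.0383).

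The C/EBP factors bind the same DNA site as dimers, and the 4 genes moved in different ways. CEBPA, the founding factor of granulocyte and monocyte progenitors, was at 215, 244 and 163 CPM with shRNA 1, at 187, 152 and 154 CPM with shRNA 2, and at 198, 203 and 226 CPM in controls. Across the shRNA 1 libraries and across the controls CEBPA followed the order of the RNA45S5 share, and across the shRNA 2 libraries it ran in the reverse order. Whether the share plays a part was not tested. The shRNA 1 libraries lay on both sides of the controls, while all shRNA 2 libraries lay below all controls. Neither comparison passed: the log2 fold change was -0.01 with shRNA 1 (edgeR adjusted p = 0.965; 95% interval -0.34 to 0.32) and -0.34 ± 0.15 with shRNA 2 (edgeR adjusted p = 0.0708). CEBPA was called lower with shRNA 2 without shRNA 2 replicate 1 (-0.47, edgeR adjusted p = 0.0262) or shRNA 1 replicate 3 (-0.35, edgeR adjusted p = 0.0166). It also differed between shRNA 2 and shRNA 1 once shRNA 1 replicate 3 was left out (-0.48, edgeR adjusted p = 0.0102; -0.33 with it, adjusted p = 0.111).

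CEBPD, the acute-phase member of the family, rose most clearly. Its level was 33.2, 27.2 and 25.9 CPM with shRNA 1, 29.3, 25.8 and 29.1 CPM with shRNA 2, and 11.0, 8.23 and 8.76 CPM in controls. All 6 libraries with a YTHDC1 shRNA were above all controls, and the hairpin groups overlapped each other. CEBPD rose 3.08-fold with shRNA 1 (1.62 ± 0.14, edgeR adjusted p = 1.28e-05), and its rise with shRNA 2 was 3.01-fold (1.59 ± 0.14, edgeR adjusted p = 4.37e-06). The difference between hairpins was -0.04, with a 95% interval of -0.34 to 0.27 (edgeR adjusted p = 0.877).

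CEBPB, which drives emergency granulopoiesis and macrophage activation, was lower with shRNA 1 and was not called with shRNA 2. It held 4.37, 4.03 and 3.85 CPM with shRNA 1, 7.14, 6.13 and 7.18 CPM with shRNA 2, and 7.67, 9.58 and 6.69 CPM in controls. All shRNA 1 libraries were below all others, while shRNA 2 overlapped control. The log2 fold change was -0.97 ± 0.16 with shRNA 1, or 1.95-fold lower (edgeR adjusted p = 0.000938), and -0.23 with shRNA 2 (edgeR adjusted p = 0.261; 95% interval -0.59 to 0.13). The difference itself passed, with CEBPB higher with shRNA 2 than shRNA 1 (0.74 ± 0.17, edgeR adjusted p = 0.00602).

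CEBPE, needed for the secondary granules of neutrophils and for eosinophils, was barely expressed. Its counts were 21, 34 and 15 with shRNA 1, 12, 18 and 18 with shRNA 2, and 12, 7 and 1 with control, or 0.416 ± 0.135 CPM with shRNA 1, 0.364 ± 0.0181 CPM with shRNA 2 and 0.106 ± 0.0882 CPM in controls (SD, n = 3 each). In CPM all 6 libraries with a YTHDC1 shRNA were above all controls. CEBPE was called higher with shRNA 1 (1.98 ± 0.55, edgeR adjusted p = 0.0145) and with shRNA 2 (1.77 ± 0.57, edgeR adjusted p = 0.0202). With so few counts the calls depended on single libraries. The shRNA 1 call was lost without shRNA 1 replicate 2 (edgeR adjusted p = 0.0521) or control replicate 2 (0.0517), and the shRNA 2 call without shRNA 2 replicate 3 (0.0545) or control replicate 2 (0.0569). Without control replicate 1 the log2 fold changes were 2.71 with shRNA 1 and 2.51 with shRNA 2. The difference between hairpins was -0.21 (edgeR adjusted p = 0.79; 95% interval -1.28 to 0.87).

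Because the C/EBP proteins compete for the same sites, the levels of these 4 genes were also compared per transcript length, as shares of their summed CPM per kilobase. CEBPG, a dimer partner of the family, was not in the sum. It averaged 104 CPM with shRNA 1, 128 CPM with shRNA 2 and 165 CPM in controls. The shares are therefore of these 4 genes and not of all C/EBP transcripts. CEBPA made up 82.2%, 86.2% and 81.5% of the sum with shRNA 1, 80.4%, 79.2% and 77.2% with shRNA 2, and 89.2%, 89.8% and 92.0% with control. Each YTHDC1 shRNA library was thus below each control, although CEBPA itself passed the test in neither comparison. With shRNA 1 CEBPA averaged 78.8 CPM per kilobase, beside 79.4 with control, while CEBPD averaged 13.2, beside 4.28 with control. CEBPD made up 15.3%, 11.6% and 15.6% with shRNA 1, 15.2%, 16.2% and 17.6% with shRNA 2, and 5.99%, 4.40% and 4.31% with control. CEBPB held 2.25 ± 0.338% with shRNA 1, 4.42 ± 0.374% with shRNA 2 and 4.67 ± 1.02% with control (SD, n = 3 each), and CEBPE averaged 0.279% with shRNA 1, 0.297% with shRNA 2 and 0.0795% with control. The shares rest on messenger RNA and on 1 annotated length per gene, and 3 libraries a group cannot give an exact permutation p under 0.10, so no test is given for them.

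**Figure D2:**
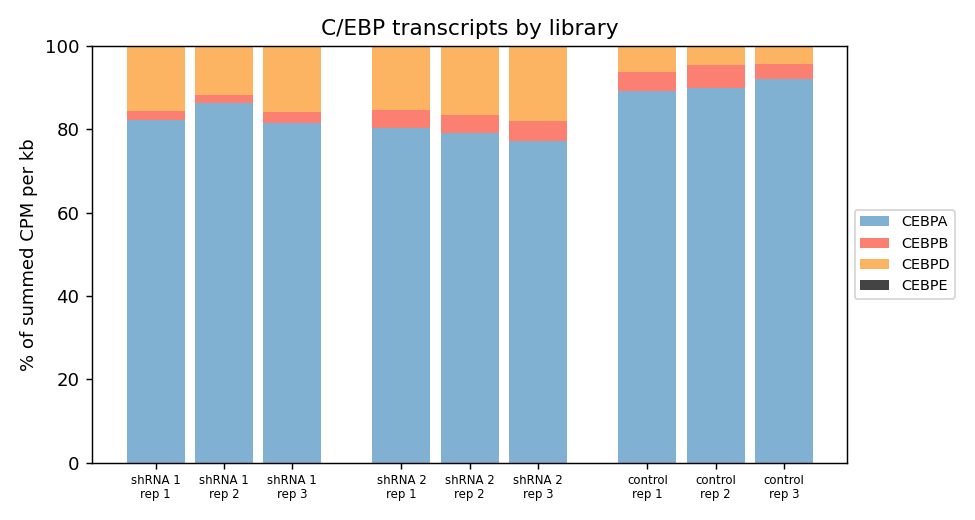
Share of CEBPA, CEBPB, CEBPD and CEBPE in the summed CPM per kilobase of these 4 genes, in percent, as 1 stacked bar per library. CEBPG is not in the sum. The shRNA 1, shRNA 2 and control libraries run from left to right. The CEBPD segment took 11.6% to 17.6% of the sum in libraries with a YTHDC1 shRNA and 4.31% to 5.99% in controls.

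GFI1, a zinc-finger repressor that restrains monocytic genes in granulocyte progenitors, separated the hairpins. Its level was 122, 120 and 121 CPM with shRNA 1, 82.1, 81.9 and 85.1 CPM with shRNA 2, and 132, 120 and 122 CPM in controls. All shRNA 2 libraries lay below all others, and shRNA 1 overlapped control. With shRNA 2 GFI1 was 1.5-fold lower (-0.59 ± 0.08, edgeR adjusted p = 0.000125), while with shRNA 1 the log2 fold change was -0.04 (edgeR adjusted p = 0.708; 95% interval -0.22 to 0.14). The hairpins differed by -0.54 ± 0.08, shRNA 2 being lower (edgeR adjusted p = 0.000584).

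MITF, a basic helix-loop-helix factor of the MiT/TFE family, gave the largest change of the 9 with shRNA 2. It held 9.79, 8.85 and 8.96 CPM with shRNA 1, 31.8, 25.4 and 28.2 CPM with shRNA 2, and 7.87, 6.27 and 6.02 CPM in controls. The groups did not overlap, and the shRNA 2 libraries stood far above the rest. The rise with shRNA 2 was 4.23-fold (2.08 ± 0.14, edgeR adjusted p = 5.69e-07) and that with shRNA 1 was 1.37-fold (0.45 ± 0.14, edgeR adjusted p = 0.0239). The shRNA 1 call was lost without shRNA 1 replicate 1 (edgeR adjusted p = 0.0713), control replicate 2 (0.105) or control replicate 3 (0.101). MITF was 3.09-fold higher with shRNA 2 than shRNA 1 (1.63 ± 0.14, edgeR adjusted p = 1.31e-05).

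MITF is transcribed from several promoters. Most of its 8 transcript rows held at least 91.4% of the total of the row used, and the exception held 11.8%. The row used, NM_198159, is the longest, known as the A form. The row of the melanocyte form NM_000248 was identical to that of NM_198158 in every library, and the counts that NM_198159 held beyond it were few: 19, 31 and 24 with shRNA 1, 82, 92 and 110 with shRNA 2, and 35, 34 and 27 with control. As a share of the row these were 3.85%, 5.67% and 5.01% with shRNA 1, 8.14%, 6.93% and 7.97% with shRNA 2, and 7.09%, 8.54% and 6.73% with control. Nearly all reads of the row were therefore counted on the other form as well, and the rise of MITF cannot be assigned to a promoter from these rows. Of 6 melanocyte markers all but MLANA were under 1 CPM in every group mean, and the list summed to 3.51 to 7.22 CPM with shRNA 1, 7.79 to 8.98 CPM with shRNA 2 and 3.7 to 4.69 CPM in controls. For CEBPA the 4 rows were identical, as were the 3 of CEBPB, so the choice of row did not matter there, and CEBPD, CEBPE, IRF8 and KLF4 had a single row.

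Between the hairpins directly, 3 of the 9 were higher with shRNA 2 than shRNA 1 (CEBPB, IRF8 and MITF) and 1 was lower (GFI1), 44.4% of the set, where edgeR called 32.0% of all genes tested (15.5% higher and 16.5% lower). Without shRNA 2 replicate 1 the counts were 2 and 1, as IRF8 no longer passed (0.30, edgeR adjusted p = 0.101), with 25.9% of all genes called. Libraries of the hairpins did not overlap for 5 of the 9, against 44.8% of all genes. The median of the 9 was -0.04, beside -0.03 over all genes. For KLF4 and CEBPD, both higher than control with each hairpin, the 95% intervals between hairpins lay within -0.36 to 0.27.

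**Figure D3:**
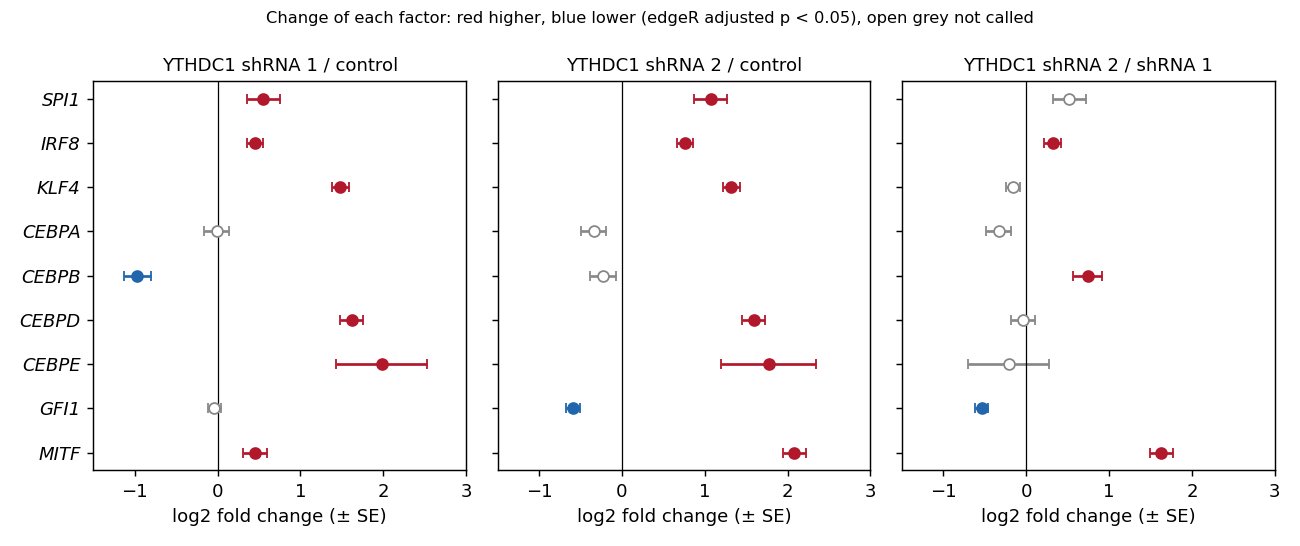
Log2 fold change of each factor with its SE from the edgeR fit, for shRNA 1 against control, shRNA 2 against control and shRNA 2 against shRNA 1; red points were called higher, blue points lower, open grey points were not called, and the vertical line marks no change. MITF reached 2.08 with shRNA 2 and 0.45 with shRNA 1, while KLF4 and CEBPD lay close together under both hairpins.

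Compared per kilobase of transcript, IRF8 was the most abundant of the 9 in every group, at 163 CPM per kilobase with shRNA 1, 203 with shRNA 2 and 119 with control. CEBPA followed with shRNA 1 (78.8) and with control (79.4). With shRNA 2 its mean of 62.5 lay next to that of SPI1, 58.0. SPI1 was scaled by its longest matched transcript, 1403 bases, while the row used for it matched 1168 bases. The order of SPI1 against CEBPA with shRNA 2, and against GFI1 with shRNA 1, depends on which length is used. GFI1 and SPI1 stood at 42.4 and 40.6 with shRNA 1 and at 43.7 and 27.6 with control, and GFI1 was at 29.1 with shRNA 2. CEBPD and KLF4 came next, at 13.2 and 9.23 with shRNA 1, 12.9 and 8.26 with shRNA 2, and 4.28 and 3.32 with control. MITF was above CEBPB with shRNA 2 (5.91 and 3.49) and below it with control (1.40 and 4.08), while CEBPE was lowest throughout, from 0.0678 to 0.268.

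The promoter windows show where binding letters of the same factors occur in their own genes. RefSeq sequence of GRCh38.p14, taken from 250 bases before the annotated start, was found for 7 of the 9, with SPI1 and CEBPD not among them. Both strands were searched for the PU.1 core GAGGAAG, the C/EBP site TTGCNNAA, the ETS-IRF composite (GGAA and GAAA with 2 bases between), the interferon-stimulated element (GAAA repeated after 2 bases), the E-box CACGTG, the M-box core CATGTG of MITF and the KLF letters GGGNGTGG. The composite and the interferon element share their closing GAAA. Only 2 windows held any of these, and they are shown with the match in capitals.
CEBPE promoter, chr14:23119256-23119505, minus strand: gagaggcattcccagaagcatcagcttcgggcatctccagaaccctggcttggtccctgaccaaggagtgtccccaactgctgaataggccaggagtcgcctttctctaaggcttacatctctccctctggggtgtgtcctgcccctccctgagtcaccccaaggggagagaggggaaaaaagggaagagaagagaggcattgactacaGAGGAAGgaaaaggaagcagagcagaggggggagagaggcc
KLF4 promoter, chr9:107489770-107490019, minus strand: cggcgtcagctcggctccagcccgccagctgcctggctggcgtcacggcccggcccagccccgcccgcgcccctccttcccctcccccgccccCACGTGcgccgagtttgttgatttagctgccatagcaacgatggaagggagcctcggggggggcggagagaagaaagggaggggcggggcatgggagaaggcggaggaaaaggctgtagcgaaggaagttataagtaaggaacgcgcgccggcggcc
The capitals mark GAGGAAG in CEBPE, 41 bases before the start, and CACGTG in KLF4, 157 bases before it. Of all 27305 promoter windows, 11.0% held the first and 6.49% the second. The other motifs were in 0 of the 7 windows and in 9.13% (TTGCNNAA), 2.44% (the composite), 3.07% (the interferon element), 9.54% (CATGTG) and 15.3% (GGGNGTGG) of all. A match is letters only, and no binding was measured.

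Close relatives and protein partners of the 9 factors were described from lists. Each list count is to be read beside the share of all genes tested that edgeR called. That share was 39.4% with shRNA 1 (20.4% higher and 19.0% lower) and 54.9% with shRNA 2 (27.5% higher and 27.4% lower). All 3 MiT/TFE relatives of MITF were higher with shRNA 2 and 2 were with shRNA 1, with list medians of 1.28 with shRNA 2 and 0.82 with shRNA 1, beside -0.02 and 0.02 over all genes. TFEC, the macrophage member, held 174, 145 and 178 CPM with shRNA 1, 234, 232 and 222 CPM with shRNA 2, and 46.3, 41.3 and 40.1 CPM in controls. It lay above every control in all 6 libraries with a YTHDC1 shRNA, and rose by 1.96 with shRNA 1 (edgeR adjusted p = 1.01e-06) and by 2.43 with shRNA 2 (edgeR adjusted p = 3.94e-08). TFE3, which dimerizes with MITF, rose by 0.82 with shRNA 1 (edgeR adjusted p = 0.000386) and by 1.28 with shRNA 2 (edgeR adjusted p = 7.29e-06). TFEB, a regulator of lysosome genes, was called with shRNA 2 (0.75, edgeR adjusted p = 0.0101) but not with shRNA 1 (-0.36, edgeR adjusted p = 0.2), where it was called lower without shRNA 1 replicate 2 (-0.64, edgeR adjusted p = 0.0153). The difference between hairpins passed (1.11, edgeR adjusted p = 0.00237).

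Of the C/EBP relatives and Tribbles regulators, 5 of 6 were tested; 1 was higher and 4 were lower with each hairpin (medians -0.50 with shRNA 1 and -0.37 with shRNA 2). Without shRNA 2 replicate 1, 3 were lower with shRNA 2. Over all genes tested, edgeR called 39.4% with shRNA 1 (19.0% lower) and 54.9% with shRNA 2 (27.4% lower). The 1 that rose was TRIB1, an adaptor that targets C/EBP-alpha protein for degradation. Its level was 131, 123 and 134 CPM with shRNA 1, 196, 192 and 191 CPM with shRNA 2, and 73.6, 69.5 and 71.8 CPM in controls. The groups did not overlap, and TRIB1 rose by 0.85 with shRNA 1 (edgeR adjusted p = 2.58e-05) and by 1.43 with shRNA 2 (edgeR adjusted p = 2.13e-07). TRIB3, a pseudokinase of the stress response, fell by 2.32 with shRNA 1 (edgeR adjusted p = 9.88e-06) and by 1.40 with shRNA 2 (edgeR adjusted p = 8.83e-05). DDIT3, a stress-induced antagonist within the family, fell by 0.50 with shRNA 1 (edgeR adjusted p = 0.00189) and by 0.26 with shRNA 2 (edgeR adjusted p = 0.0402), a call lost without any 1 of the shRNA 2 libraries or control replicate 1 or 2 (edgeR adjusted p from 0.0501 to 0.16). CEBPZ, on the list by its name, is not a member of the C/EBP family, although it is among the genes counted as lower. It fell by 0.47 with shRNA 1 (edgeR adjusted p = 0.00611) and by 0.92 with shRNA 2 (edgeR adjusted p = 3.89e-05). CEBPG, a dimer partner of the family, fell by 0.67 with shRNA 1 (edgeR adjusted p = 0.00079) and by 0.37 with shRNA 2 (edgeR adjusted p = 0.0156), the last being lost without shRNA 2 replicate 3 (0.0689), control replicate 1 (0.0529) or control replicate 2 (0.0644).

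The other KLF, ETS and IRF factors went in both directions. Beside their counts, edgeR called 39.4% of all genes tested with shRNA 1 and 54.9% with shRNA 2. Among 12 KLF genes tested of 16 listed, 5 were higher and 5 lower with shRNA 1 (median 0.07) and 5 higher and 3 lower with shRNA 2 (median 0.20). KLF6, a KLF expressed in macrophages, held 97.5, 96.9 and 103 CPM with shRNA 1, 174, 176 and 191 CPM with shRNA 2, and 45.9, 40.3 and 48.9 CPM in controls, a rise of 1.14 with shRNA 1 (edgeR adjusted p = 1.16e-05) and 2.00 with shRNA 2 (edgeR adjusted p = 6.46e-08). KLF15, a metabolic KLF at a low level, averaged 0.251 CPM with shRNA 1, 0.0938 CPM with shRNA 2 and 1.05 CPM in controls, a fall of 2.04 with shRNA 1 (edgeR adjusted p = 0.000441) and 3.40 with shRNA 2 (edgeR adjusted p = 1.83e-05). Of 9 ETS genes tested, 4 were higher and 1 lower with shRNA 1 (median 0.19), and 4 were higher and 3 lower with shRNA 2 (median 0.23; 4 and 2 without its replicate 1). ETV6, an ETS repressor, rose by 0.99 with shRNA 2 (edgeR adjusted p = 1.76e-05). It averaged 118 CPM with shRNA 1, 178 CPM with shRNA 2 and 89.3 CPM in controls. Of the other 8 interferon regulatory factors, 3 were higher and 2 lower with shRNA 1 (median 0.33; 2 and 2 without shRNA 2 replicate 1), and 5 and 2 with shRNA 2 (median 0.57). IRF9, of the interferon receptor pathway, rose by 0.63 with shRNA 1 (edgeR adjusted p = 0.00695) and 1.03 with shRNA 2 (edgeR adjusted p = 0.000171), whereas IRF3, the sensor-activated factor, fell by 0.76 with shRNA 1 (edgeR adjusted p = 0.00641) and 0.78 with shRNA 2 (edgeR adjusted p = 0.00352).

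GFI1 acts through LSD1 and CoREST proteins, and 9 of 10 listed genes of this complex were tested. With shRNA 1, 1 was higher and 4 were lower (median 0.05), and with shRNA 2, 2 were higher and 4 lower (median -0.13). The share of all genes tested that edgeR called was 39.4% with shRNA 1 and 54.9% with shRNA 2. RCOR2, a CoREST subunit, held 1.49, 1.97 and 1.74 CPM with shRNA 1, 1.83, 1.80 and 1.78 CPM with shRNA 2, and 4.72, 5.22 and 5.69 CPM in controls, a fall of 1.58 with shRNA 1 (edgeR adjusted p = 5.98e-05) and 1.53 with shRNA 2 (edgeR adjusted p = 3.07e-05). KDM1A, which encodes LSD1, fell by 0.89 with shRNA 2 (edgeR adjusted p = 1.85e-05). Its libraries lay below all controls with shRNA 1 too. They held 120, 104 and 118 CPM with shRNA 1, 84.7, 96.2 and 89.6 CPM with shRNA 2, and 174, 166 and 160 CPM in controls.

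Genes known as targets of the factors were described in the same way. Over all genes tested, edgeR called 39.4% with shRNA 1 (20.4% higher) and 54.9% with shRNA 2 (27.5% higher). Of 19 PU.1 targets, 12 were higher and 0 lower with shRNA 1 (median 0.76), and 14 were higher and 2 lower with shRNA 2 (median 1.99). Without shRNA 2 replicate 1 these counts were 13 and 0 with shRNA 1, and 15 and 1 with shRNA 2. CYBB, the phagocyte oxidase subunit shared with the IRF8 targets, held 11.9, 6.91 and 5.41 CPM with shRNA 1, 33.4, 27.0 and 20.7 CPM with shRNA 2, and 0.622, 0.268 and 0.255 CPM in controls. It rose by 4.40 with shRNA 1 (edgeR adjusted p = 9.19e-05) and by 6.14 with shRNA 2 (edgeR adjusted p = 6.33e-06). NCF1, another oxidase subunit, rose by 2.99 with shRNA 1 (edgeR adjusted p = 1.01e-06). It averaged 77.1 CPM with shRNA 1, 136 CPM with shRNA 2 and 9.72 CPM in controls. NCF1 has near-identical pseudogenes, so its reads are uncertain. LYZ, the lysozyme of monocytes, rose by 3.78 with shRNA 1 (edgeR adjusted p = 0.000147) and by 3.83 with shRNA 2 (edgeR adjusted p = 5.94e-05). Of 10 IRF8 targets, 6 were higher and 2 lower with shRNA 1 (median 0.65), and 6 were higher and 1 lower with shRNA 2 (median 0.93). PTPN13, a phosphatase gene that IRF8 is known to repress, fell by 1.23 with shRNA 1 (edgeR adjusted p = 6.13e-05) and by 1.99 with shRNA 2 (edgeR adjusted p = 7.32e-07). ASAH1, acid ceramidase, rose by 2.01 with shRNA 2 (edgeR adjusted p = 1.02e-06). It averaged 169 CPM with shRNA 1, 319 CPM with shRNA 2 and 79 CPM in controls.

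Among MITF targets of osteoclasts and macrophages, 5 of 7 tested were higher with shRNA 1 and 6 with shRNA 2 (medians 1.00 and 1.67). The number lower was 0 with each hairpin. Beside this, edgeR called 20.4% of all genes tested higher with shRNA 1 and 27.5% with shRNA 2. GPNMB, a glycoprotein of macrophages and osteoclasts, held 3.30, 1.70 and 2.06 CPM with shRNA 1, 85.5, 54.7 and 52.6 CPM with shRNA 2, and 1.08, 0.961 and 0.932 CPM in controls. It rose by 1.24 with shRNA 1 (edgeR adjusted p = 0.00628) and by 6.01 with shRNA 2 (edgeR adjusted p = 2.37e-07), and shRNA 2 exceeded shRNA 1 by 4.78 (edgeR adjusted p = 3.95e-06). ACP5, the tartrate-resistant acid phosphatase of osteoclasts, held 0.616, 0.469 and 0.318 CPM with shRNA 1, 53.3, 27.9 and 23.4 CPM with shRNA 2, and 0.143, 0.205 and 0.210 CPM in controls. Its rise was 7.53 with shRNA 2 (edgeR adjusted p = 4.67e-07), with replicate 1 at 2.08 times the mean of the other shRNA 2 libraries. With shRNA 1 it was 1.31 (edgeR adjusted p = 0.044), a call lost without any 1 of the shRNA 1 or control libraries (edgeR adjusted p from 0.0519 to 0.141). CTSK, cathepsin K of bone resorption, rose by 1.16 with shRNA 1 (edgeR adjusted p = 0.00201) and by 1.58 with shRNA 2 (edgeR adjusted p = 0.000142). Of the 6 pigment-cell targets of MITF only 3 were tested; MLANA rose by 1.42 with shRNA 2 (edgeR adjusted p = 0.00147) and TYRP1 fell by 1.13 with shRNA 1 (edgeR adjusted p = 0.00639) and by 1.06 with shRNA 2 (edgeR adjusted p = 0.00653).

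Of the 5 primary granule genes, 1 was higher and 1 lower with shRNA 1 (median 0.68; 2 and 1 without shRNA 2 replicate 1), and 0 were higher and 4 lower with shRNA 2 (median -1.27). Between hairpins 4 of the 5 were lower with shRNA 2. Over all genes tested, edgeR called 39.4% with shRNA 1, 54.9% with shRNA 2 (27.4% lower) and 32.0% between hairpins (16.5% lower). MPO, the myeloperoxidase gene of granulocyte and monocyte progenitors, held 351, 283 and 236 CPM with shRNA 1, 50.1, 29.2 and 43.3 CPM with shRNA 2, and 130, 66.2 and 99.4 CPM in controls. All shRNA 1 libraries were above and all shRNA 2 libraries below the controls. MPO rose by 1.56 with shRNA 1 (edgeR adjusted p = 0.00272) and fell by 1.27 with shRNA 2 (edgeR adjusted p = 0.00474), and the hairpins differed by -2.83 (edgeR adjusted p = 0.000183). CTSG, cathepsin G, fell by 3.14 with shRNA 2 (edgeR adjusted p = 7.62e-08). Its change of -0.46 with shRNA 1 (edgeR adjusted p = 0.0298) was lost without control replicate 1 (0.0993) or control replicate 2 (0.0704). Of the 12 listed C/EBP-epsilon targets only 6 were tested, 2 being higher with shRNA 1 and 3 with shRNA 2, and 0 lower. BPI rose by 1.97 with shRNA 1 (edgeR adjusted p = 0.000314) and by 1.40 with shRNA 2 (edgeR adjusted p = 0.00123). MMP9 rose by 5.97 with shRNA 2 (edgeR adjusted p = 5.13e-06). Its level stayed low, averaging 0.0303 CPM with shRNA 1, 1.12 CPM with shRNA 2 and 0.0155 CPM in controls.

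Among 9 tested genes that GFI1 is known to repress, 3 were higher and 2 lower with shRNA 1 (median -0.05). With shRNA 2, 4 were higher and 3 lower (median 0.24), and without its replicate 1 these counts were 4 and 2. The share of all genes tested that edgeR called was 39.4% with shRNA 1 and 54.9% with shRNA 2. CSF1, the macrophage growth factor, held 0.218, 0.178 and 0.206 CPM with shRNA 1, 21.6, 11.0 and 9.06 CPM with shRNA 2, and 0.239, 0.252 and 0.225 CPM in controls. Only the shRNA 2 libraries stood apart, 57.5-fold above control (5.84, edgeR adjusted p = 2.56e-07), and shRNA 2 exceeded shRNA 1 by 6.10 (edgeR adjusted p = 2.08e-06). CSF1R, its receptor and also a PU.1 target, rose by 2.23 with shRNA 1 (edgeR adjusted p = 9e-06) and by 1.99 with shRNA 2 (edgeR adjusted p = 5.34e-06), and EGR2, a monocyte factor, by 1.32 with shRNA 1 (edgeR adjusted p = 5.04e-05) and 2.42 with shRNA 2 (edgeR adjusted p = 2.47e-07). MEIS1, a stem-cell homeobox factor, was among the genes that fell, by 0.90 with shRNA 1 (edgeR adjusted p = 0.000592) and 1.40 with shRNA 2 (edgeR adjusted p = 1.27e-05).

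Of 17 other transcription factors of monocytes and macrophages, 8 were higher and 2 lower with shRNA 1 (median 0.44), and 12 were higher and 1 lower with shRNA 2 (median 1.26; 9 and 2 without its replicate 1). JUN, which partners with PU.1 and C/EBP proteins, rose by 1.82 with shRNA 1 (edgeR adjusted p = 8.31e-06) and by 3.19 with shRNA 2 (edgeR adjusted p = 5.57e-08). PPARG, the lipid-sensing nuclear receptor of macrophages, rose by 3.39 with shRNA 1 (edgeR adjusted p = 6.91e-05) and 3.37 with shRNA 2 (edgeR adjusted p = 2.89e-05). Its level stayed low, averaging 1.55 CPM with shRNA 1, 1.54 CPM with shRNA 2 and 0.146 CPM in controls. Of 12 tested factors of stem cells and progenitors, 3 were higher and 2 lower with shRNA 1 (median 0.05; 2 and 2 without shRNA 2 replicate 1), and 2 were higher and 5 lower with shRNA 2 (median -0.23; 2 and 4 without its replicate 1). LMO2, a bridging factor of progenitors, was among the genes that rose. Its rise was 1.09 with shRNA 1 (edgeR adjusted p = 8.73e-05) and 1.21 with shRNA 2 (edgeR adjusted p = 1.68e-05). Beside both lists, edgeR called 39.4% of all genes tested with shRNA 1 and 54.9% with shRNA 2.

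**Figure D4:**
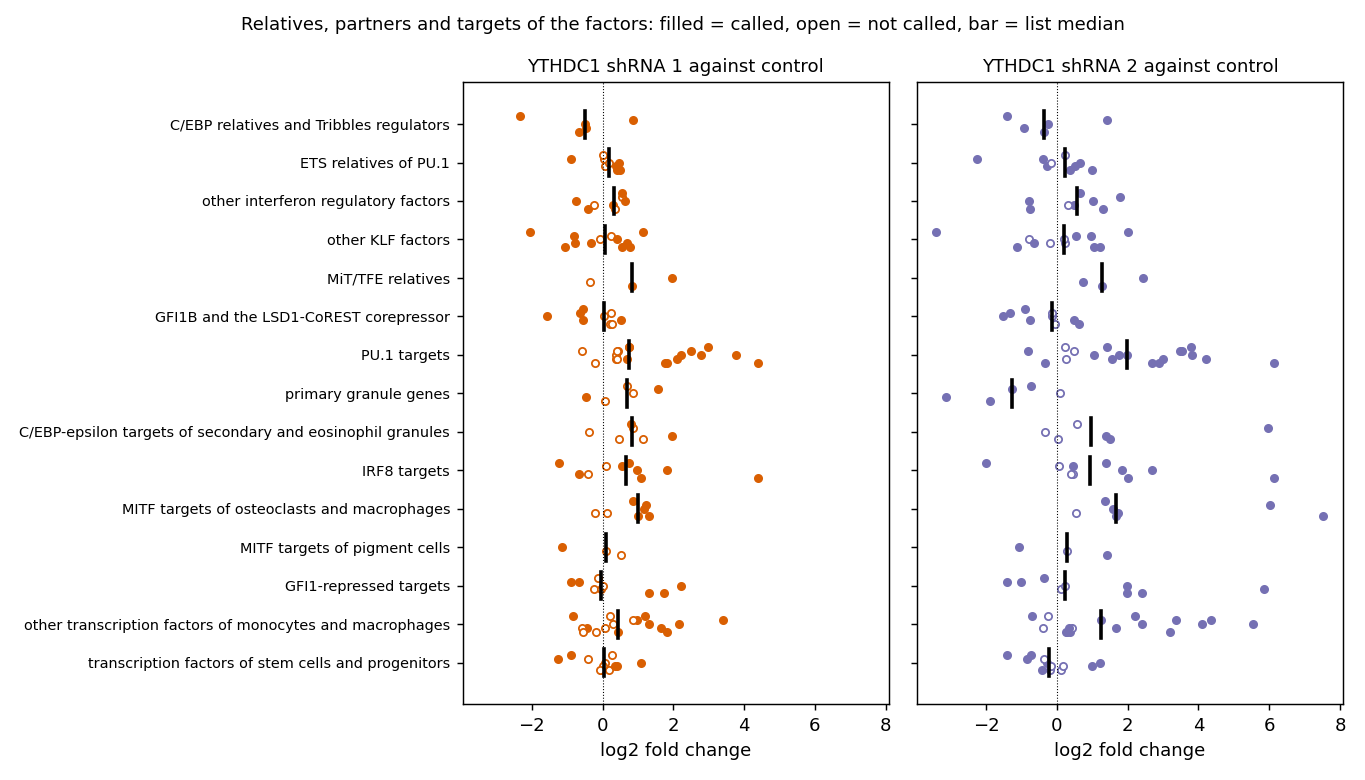
Log2 fold change of each tested gene in the lists of relatives, partners and targets, for shRNA 1 against control (left) and shRNA 2 against control (right); filled points were called by edgeR, open points were not, and black bars are list medians. Of the 19 PU.1 targets 14 were higher with shRNA 2, while 4 of the 5 primary granule genes were lower with shRNA 2 and 1 was with shRNA 1. Over all genes tested, edgeR called 27.5% higher and 27.4% lower with shRNA 2, and 19.0% lower with shRNA 1.

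The genes whose pattern over the 9 libraries lay closest to each factor, by root mean square distance of log2 CPM from the control mean, were largely not myeloid regulators. For IRF8 they were ACSS2 (0.0452) and SPAG9 (0.07), for GFI1 CPSF7 (0.053) and ZNF507 (0.0625), and for CEBPA POFUT2 (0.0796) and MON1B (0.0827). KLF4 was nearest to P2RY2 (0.0935) and C10orf11 (0.0947), CEBPD to LINC00968 (0.108) and C4orf3 (0.112), and SPI1 to SH3BGRL3 (0.131) and HPCAL1 (0.145). CEBPB had LOC730101 (0.14) and ALDH5A1 (0.15), and MITF had ADORA2B (0.146) and CAMSAP2 (0.163). CEBPE, with its few counts, had no close match, the nearest being SNX10 (0.488) and CD52 (0.519).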

How the data were processed

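The authors deposited 1 table of whole-number counts for each transcript. Per the submitters' processing notes, STAR, DESeq and the human build hg19 were used, with roles, versions, counting program and use of strand not given in the sources used here. It had 48104 rows, and for each of 25679 symbols the row with the highest total was kept. Rows named by dates numbered 80, of which 2 could not be restored. Per-sample columns not used numbered 0. The tests were run in edgeR 4.0.16 under R 4.3.3 (filterByExpr, trimmed-mean scaling, robust quasi-likelihood fit of all 9 libraries, two-sided tests, Benjamini-Hochberg adjustment over 16746 genes, threshold 0.05); SE and 95% intervals come from that fit, and the steps were tested on simulated data. DESeq2 1.42.0 served as an alternative. The members and the gene lists were chosen with earlier results of these data known. Named genes are all members, YTHDC1, and from each list up to 3 genes called with the largest change at 1 CPM or more whose groups did not overlap, or any gene of a list of at most 8. Lengths are of the longest GENCODE 29 transcript matched through RefSeq accessions. Pairs of libraries within a group differed by more than sampling noise (chi-square per gene 18.7 to 269). Floors and intervals of single counts cover counting error only.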

Additional observations from a re-analysis of the deposited data

Results flagged for a closer look

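For 4 of the 9 factors the difference between the hairpins passed its own test, as shRNA 2 minus shRNA 1 on the log2 scale. Between the hairpins edgeR called 32.0% of all genes tested, and 25.9% without shRNA 2 replicate 1. MITF differed by 1.63 (edgeR adjusted p = 1.31e-05), at 31.8, 25.4 and 28.2 CPM with shRNA 2, against 9.79, 8.85 and 8.96 CPM with shRNA 1. CEBPB differed by 0.74 (edgeR adjusted p = 0.00602), with 6.82 ± 0.593 CPM with shRNA 2 and 4.08 ± 0.261 CPM with shRNA 1 (SD, n = 3 each). GFI1 differed by -0.54 (edgeR adjusted p = 0.000584), with 83.1 ± 1.81 CPM with shRNA 2 and 121 ± 0.698 CPM with shRNA 1. IRF8 differed by 0.32 (edgeR adjusted p = 0.0281), with 615 ± 27.8 CPM with shRNA 2 and 493 ± 20.1 CPM with shRNA 1, and this call was lost without shRNA 2 replicate 1 (0.30, adjusted p = 0.101). YTHDC1 mRNA was lower with shRNA 2 than with shRNA 1 without that replicate (-1.05, edgeR adjusted p = 0.000264), and the part of knockdown depth in these differences was not tested.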

How the results depend on the processing

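Each of the 27 values (9 factors in 3 comparisons) was refitted under 16 alternatives, giving 432 values, of which 397 kept their direction and side of the threshold, 22 lost the call, 8 gained it and 5 changed sign. The sign changes were all of values near 0: with single libraries left out, CEBPA with shRNA 1 ran from -0.15 to 0.13 (above 0 without shRNA 1 replicate 3, and 0.04 without control replicate 3), CEBPD between hairpins from -0.11 to 0.08 (above 0 without shRNA 1 replicate 1, and 0.01 without shRNA 2 replicate 2), and CEBPE between hairpins from -0.42 to 0.07 (above 0 without shRNA 1 replicate 2). Leaving out each library, 4 to 7 factors were called with shRNA 1 (4 without control replicate 2), 6 to 8 with shRNA 2 and 3 to 5 between hairpins, and over all genes 4828 to 7009, 7877 to 10118 and 3875 to 6233. Other settings (DESeq2, its size factors, no filter, the compared groups alone, RNA45S5 left out of library sizes, the second-highest row) gave 6 to 7, 7 to 8 and 3 to 5 factors. With these settings 6065 to 6950, 9131 to 10295 and 4353 to 5744 of all genes were called. Beyond single libraries, SPI1 with shRNA 1 missed the threshold with no filter (edgeR adjusted p = 0.0536), MITF with shRNA 1 with the compared groups alone (0.0564), and IRF8 between hairpins with no filter (0.102) or those groups alone (0.0592). CEBPA was called lower with shRNA 2 with no filter (-0.41, edgeR adjusted p = 0.0273) or the compared groups alone (-0.33, 0.0179), and SPI1 higher between hairpins by DESeq2 (adjusted p = 0.0354). The cause of these changes was not tested. Deviations of same-numbered libraries correlated at 0.568, 0.0477 and 0.214 for shRNA 1 and control. For shRNA 2 and control they correlated at 0.0149, 0.0386 and 0.00481, and between the hairpins at 0.0203, -0.0875 and -0.00933. Of 9 libraries, 3 correlated best with their own number. The main fit used no pairing, although replicate 1 of shRNA 1 and of control shared part of their deviation. A replicate block called 6, 7 and 4 factors and 6573, 9159 and 5310 genes, with SPI1 under shRNA 1 not called (edgeR adjusted p = 0.108). Depth limits CEBPE most, whose highest library held 34 counts.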

Other observations

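CEBPA-AS1, a noncoding RNA gene beside CEBPA, was singled out after its values were seen. It held 0.675, 0.955 and 1.42 CPM with shRNA 1, 0.98, 0.86 and 1.06 CPM with shRNA 2, and 2.53, 3.25 and 3.46 CPM in controls. All 6 libraries with a YTHDC1 shRNA lay below all controls, and the fall was 1.59 with shRNA 1 (edgeR adjusted p = 0.000907) and 1.67 with shRNA 2 (edgeR adjusted p = 0.000399) on the log2 scale. CEBPA itself passed in neither comparison. Use of strand in the counting is not stated, so reads of overlapping transcripts cannot be told apart.

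The nearest tested genes on both sides of the 9 factors, 18 in all in RefSeq order, were added after the data were seen. Of these 5 were higher and 2 lower with shRNA 1 (median 0.02), where 39.4% of all genes tested were called, and 5 were higher and 5 lower with shRNA 2 (median 0.09), where 54.9% of all were. FRMD4B, beside MITF, held 30.3, 24.6 and 28.5 CPM with shRNA 1, 47.9, 51.8 and 51.4 CPM with shRNA 2, and 25.6, 25.8 and 24.9 CPM in controls. It was higher with shRNA 2 (0.99, edgeR adjusted p = 1.37e-05), as MITF was, and not called with shRNA 1 (0.13, edgeR adjusted p = 0.354). FOXP1, on the other side of MITF, was lower with shRNA 2 (-0.58, edgeR adjusted p = 0.000187). EVI5, beside GFI1, was higher with shRNA 1 (0.67, edgeR adjusted p = 0.000549) and with shRNA 2 (0.73, edgeR adjusted p = 0.000165).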
